A study of Mus musculus with 17 samples.

Results

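The genes described here are 35 mouse genes of sterol and fatty acid synthesis, followed through sorted macrophages of the synovium, the tissue lining the joint cavity. They were taken by symbol from a list of pathway genes, drawn up with earlier results of these data known, and 35 of 35 were present among the 22859 genes of the count table. By role, 8 encode enzymes of the mevalonate steps, 11 enzymes of the squalene and sterol steps, 6 regulators and carriers of sterols, 4 enzymes of fatty acid synthesis and 6 desaturases or elongases.

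The data were 17 bulk RNA-seq libraries in 6 groups of adult mice, all of them labelled Fcgr2b-KO, so that the controls carried the same knockout and no wild-type library was analysed here. The mice had received immune complexes (IC, antibodies bound to their antigen, here ovalbumin and rabbit antibody against it) intravenously 8 h before culling, or were labelled as healthy controls, and what these controls were given is not stated in the sources used here. The libraries labelled Lyve1 are read as LYVE1+CX3CR1+ macrophages, those labelled IAIE as MHCII+CD11c- macrophages and those labelled CD11c as MHCII+CD11c+ macrophages. The number of libraries was 3 in each group but the last, MHCII+CD11c+ after IC, with 2. Comparisons of subsets in control mice use the same control libraries as the IC comparisons. Nothing in the labels says whether same-numbered libraries came from the same mouse or mice. For the same 3 sorted subsets a figure legend of the study gives 3 mice for each plot. Whether the libraries used here are pools of mice is not known. The methods of the study allow mice of both sexes and several ages, so p-values measure the spread between these libraries.

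Cells make cholesterol from acetyl-CoA through mevalonate, isoprenoids, squalene and lanosterol, and they make fatty acids from the same precursor through malonyl-CoA. When sterols are scarce, SCAP carries the transcription factor SREBP2 from the endoplasmic reticulum to the Golgi, where it is cleaved and released to switch on the sterol genes. INSIG proteins hold SCAP back when sterols are plentiful, and Insig1 is itself a target of the SREBP factors. SREBP1, encoded by Srebf1, acts mainly on fatty acid genes. Macrophages take up much of their cholesterol by engulfing other cells and particles, and they pass the excess on through the transporters ABCA1 and ABCG1, whose genes are switched on by the LXR receptors.

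Library depth was between 2301913 and 7248939 counts, and the LYVE1+CX3CR1+ libraries after IC were among the shallowest, with 11547 to 14068 genes detected against 16974 to 19926 in their controls. Fcgr2b had between 69.3 and 248 CPM (counts scaled to a fixed library size) in the 17 libraries. Which part of the gene is deleted is not given in the sources used here and reads of the similar gene Fcgr3 may be assigned to it, so these reads do not check the knockout. H2-Ab1, a component of MHC class II, had at most 36.8 CPM in LYVE1+CX3CR1+ libraries and at least 2654 CPM in MHCII+ libraries. Itgax, which encodes CD11c, had 275 to 443 CPM in MHCII+CD11c+ libraries and at most 16.05 CPM elsewhere. The MHCII+CD11c+ control libraries held less RNA of the 6 macrophage markers tested (Cd68, Adgre1, Csf1r, Mrc1, Mertk, C1qa), with sums of 2589 to 3374 CPM against 6813 to 10028 in MHCII+CD11c- controls, and all 6 passed the test as lower. Dendritic cell markers (Flt3, Zbtb46, Ccr7, Xcr1, Clec9a) summed to 83.0 to 147 CPM against 19.97 to 71.5 CPM, and 0 of the 4 tested passed. In bulk samples a change in the cells collected and a change in RNA per cell cannot be told apart. Control libraries numbered 2 stood apart from the others of both MHCII+ groups: Vsig4, a marker of the LYVE1+CX3CR1+ side, had 306 CPM in the MHCII+CD11c- one against 22.4 and 29.0 in the other controls, and 81.2 CPM in the MHCII+CD11c+ one against 0.0 and 1.1; it had 28.3 to 541 CPM in MHCII+CD11c- libraries after IC. Results without both libraries are given for several comparisons below.

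Of the 35 genes, 34 passed the filter on low counts and were tested. Fdps, which encodes farnesyl diphosphate synthase, had 30 counts in all libraries together, was at 0 in 11 of them, and shares 26.7% of its exonic bases with Gm43738 on the same strand. Divided by the exonic length of the gene and averaged over the 6 group means, Insig1 had the highest level with 38.5 CPM per kb, followed by Acly, the ATP citrate lyase that supplies acetyl-CoA, with 37.4 and Srebf2 with 29.7. Sterol enzymes were lower on this scale, with Ebp at 16.3, Cyp51 at 12.1, Hmgcs1 at 9.21 and Sqle at 5.07 CPM per kb, and Acss2, the acetyl-CoA synthetase that uses acetate, had 0.662. Low members were scattered between replicates: Acat2, Lss, Tm7sf2, Hsd17b7, Elovl6 and Fads2 were each at 0 in 1 or 2 libraries, mostly in the shallow LYVE1+CX3CR1+ library 3 after IC.

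**Figure D1:**
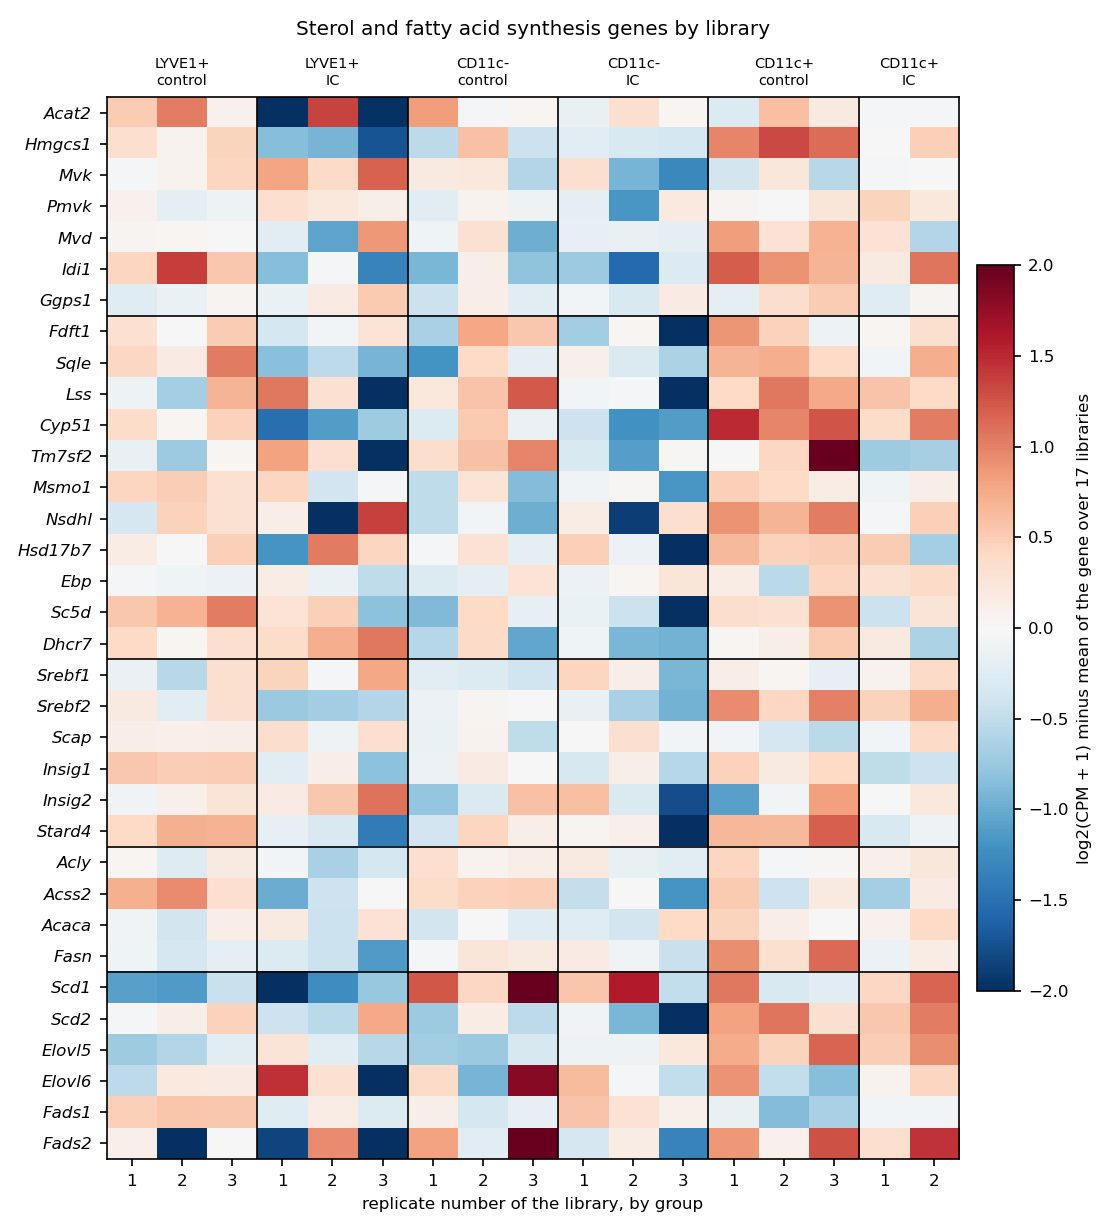
Level of the 34 tested genes in 17 libraries, as log2(CPM + 1) minus the mean of the gene over all libraries; colours saturate at 2 log2 units, horizontal lines part the roles in the order mevalonate, squalene and sterol, control and transport, fatty acid synthesis, desaturases and elongases, and the axis shortens the subset names to LYVE1+, CD11c- (MHCII+CD11c-) and CD11c+ (MHCII+CD11c+). Hmgcs1, Cyp51, Srebf2 and Insig1 are bluer after IC than in control libraries of LYVE1+ macrophages, and Hmgcs1, Cyp51, Srebf2 and Elovl5 are red in CD11c+ controls.

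The first question was what IC changed after 8 h. Averaged over the 3 subsets, 4 of 34 members fell and 0 rose at an adjusted p under 0.05 (called), beside 3.35% of all 15272 genes called in this comparison. They were Hmgcs1, which encodes a synthase of the mevalonate steps, Cyp51, the lanosterol demethylase, Srebf2, which encodes SREBP2, and Insig1. All 4 stayed called without both MHCII+ control libraries numbered 2, where the fatty acid gene Fasn was called too. Of the 18 tested sterol enzymes, 14 had a negative fitted log2 fold change with a median of -0.35, and of the 10 fatty acid genes 7 were negative with a median of -0.20. Over all genes the median was -0.07, with 56.7% negative.

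Promoters are shown for 3 of these genes, chosen because they hold a searched motif before the gene. Sequences are RefSeq promoters of GRCm38.p6, 5′ to 3′ on the strand of the gene, from 250 bases before the start, without bases that GENCODE M21 places inside the gene. Capitals mark the letters TCACNCCAC (a sterol regulatory element), CCAAT (an NF-Y box) and CACGTG (an E-box), searched on both strands, so that ATTGG is an NF-Y box on the opposite strand.
Hmgcs1, chr13:119690101-119690350, plus strand: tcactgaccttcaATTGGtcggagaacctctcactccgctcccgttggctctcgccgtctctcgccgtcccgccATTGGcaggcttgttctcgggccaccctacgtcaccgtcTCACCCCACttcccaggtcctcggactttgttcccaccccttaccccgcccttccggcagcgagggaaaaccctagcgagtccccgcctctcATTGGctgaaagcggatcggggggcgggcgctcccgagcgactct
Insig1, chr5:28071162-28071362, plus strand: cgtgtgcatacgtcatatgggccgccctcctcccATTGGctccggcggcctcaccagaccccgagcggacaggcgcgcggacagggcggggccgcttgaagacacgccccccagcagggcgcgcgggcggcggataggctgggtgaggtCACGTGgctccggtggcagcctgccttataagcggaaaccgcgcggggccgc
Srebf2, chr15:82147019-82147180, plus strand: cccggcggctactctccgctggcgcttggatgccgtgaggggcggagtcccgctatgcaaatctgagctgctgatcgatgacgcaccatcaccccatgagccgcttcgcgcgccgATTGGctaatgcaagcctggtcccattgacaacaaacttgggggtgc
The Hmgcs1 promoter held the sterol regulatory element letters from 137 to 129 bases before the start, between NF-Y boxes, and the Insig1 promoter held an E-box from 101 to 96 bases before the start. In Cyp51 the match was an NF-Y box from 29 to 25 bases before the RefSeq start, inside the gene as GENCODE places it. Promoters were given for 28 of the 35 genes, over the 300 bases from 250 before to 50 after each start, and some genes have more than 1. The sterol regulatory element letters stood in 1 of these 28 (3.57%), against 1.39% of 10441 tested genes with a promoter, the NF-Y box in 23 (82.1%) against 42.6%, and the E-box in 6 (21.4%) against 11.5%. Only exact letters were counted, so stretches that differ by 1 base were not, such as tcaccccat in the Srebf2 promoter. How often such near matches stand in other promoters was not counted, so this example has no background. A match is a description of letters and was not tied to binding or to the IC change.

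Hmgcs1 (chr13:119690379-119708260, plus strand, GRCm38) had 46.1, 38.6 and 50.4 CPM in LYVE1+CX3CR1+ controls and 19.9, 18.9 and 10.4 CPM after IC. In MHCII+CD11c+ macrophages it had 73.0, 93.3 and 80.9 CPM in controls and 37.0 and 51.5 CPM after IC. In both subsets every IC library lay below every control. In MHCII+CD11c- macrophages the groups overlapped, with 25.2, 55.3 and 27.1 CPM in controls and 31.5, 29.5 and 28.6 CPM after IC. The averaged log2 fold change was -0.87 ± 0.19 (SE; adjusted p = 0.00856 by edgeR's quasi-likelihood test), and its 3 parts were -1.45 ± 0.32, -0.90 ± 0.34 and -0.27 ± 0.30 in the same order of subsets. Without MHCII+CD11c+ library 1 after IC the averaged change was -0.79 with an adjusted p of 0.0697. Hmgcs1 shares 12.1% of its exonic bases with the antisense gene Gm48342, which had 82 counts in all against 3443 for Hmgcs1.

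Cyp51 (chr5:4081145-4104746, minus strand) had 56.1, 44.9 and 59.9 CPM in LYVE1+CX3CR1+ controls and 14.6, 19.5 and 26.1 CPM after IC. In MHCII+CD11c- macrophages it had 35.6, 62.6 and 39.5 CPM in controls and 32.4, 18.1 and 19.5 CPM after IC. IC libraries lay below the controls without overlap in these subsets. MHCII+CD11c+ macrophages had 124, 86.2 and 106 CPM in controls and 56.6 and 88.9 CPM after IC, which overlapped. The averaged log2 fold change was -0.98 ± 0.18 (adjusted p = 0.00238), a level 1.97-fold lower after IC, and it was called in every alternative run. Cyp51 shares 3.76% of its exonic bases with Akap9 on the opposite strand.

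Srebf2 (chr15:82147181-82205379, plus strand) had 219, 167 and 239.7 CPM in LYVE1+CX3CR1+ controls and 115, 118 and 128 CPM after IC. In MHCII+CD11c- macrophages controls had 177, 200.2 and 192 CPM and IC libraries 173, 122 and 99.1 CPM. These groups did not overlap, though MHCII+CD11c- library 1 after IC lay close to its lowest control. MHCII+CD11c+ macrophages had 371, 258 and 389 CPM in controls and 265 and 319 CPM after IC, which overlapped. The averaged change was -0.51 ± 0.12 (adjusted p = 0.0200), and it was not called without LYVE1+CX3CR1+ control 3 (adjusted p = 0.058) or without either MHCII+CD11c+ library after IC (0.133 without library 1 and 0.0533 without library 2).

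Insig1 (chr5:28071363-28078662, plus strand) had 171, 164 and 166 CPM in LYVE1+CX3CR1+ controls and 99.2, 127 and 65.5 CPM after IC. MHCII+CD11c+ macrophages had 161, 133 and 155 CPM in controls and 81.5 and 87.4 CPM after IC. The groups were apart in both subsets. MHCII+CD11c- macrophages had 107, 130.4 and 117 CPM in controls and 92.9, 126 and 78.4 CPM after IC, which overlapped. The averaged change was -0.62 ± 0.13 (adjusted p = 0.00757), and it was called in every alternative run, with the highest adjusted p, 0.0492, when MHCII+CD11c+ library 1 after IC was left out.

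**Figure D2:**
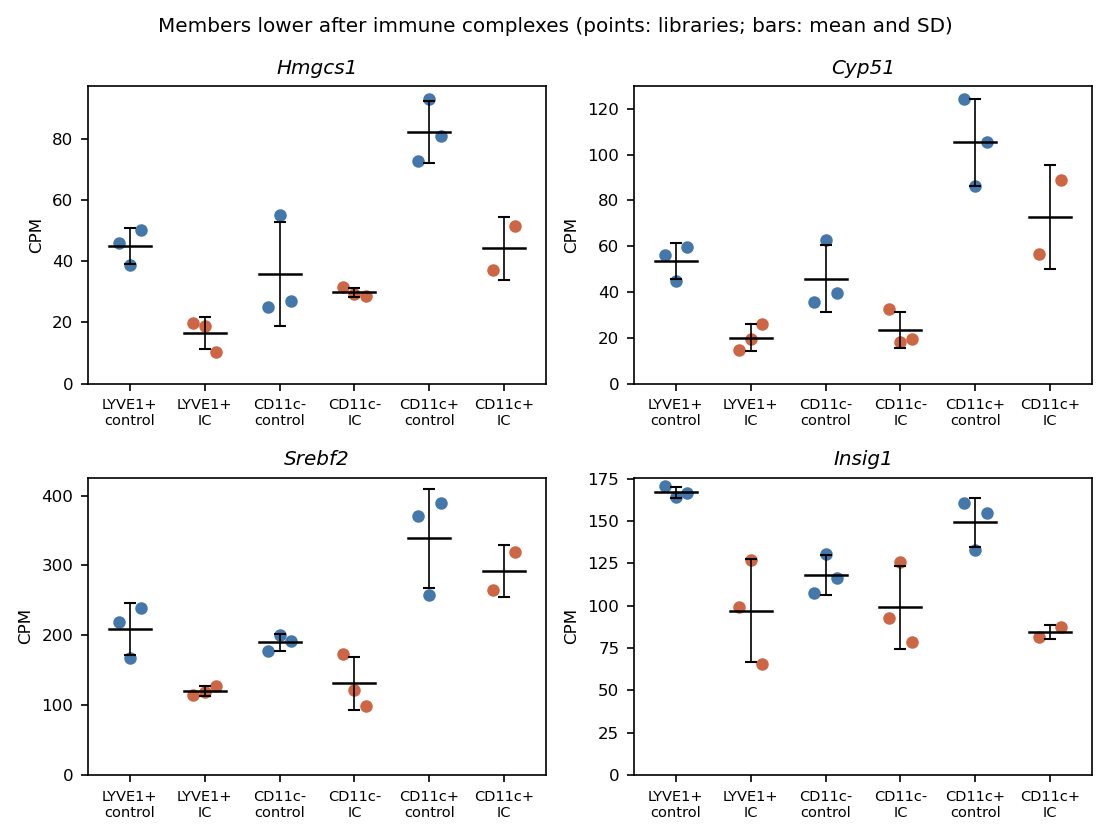
CPM of Hmgcs1, Cyp51, Srebf2 and Insig1 by group; points are libraries (blue control, orange IC), horizontal bars the mean and vertical bars the SD over 3 libraries (2 for CD11c+ IC), with subsets named as in the map of levels. The IC points of LYVE1+ macrophages lie below the control points in each panel, with means of 16.4 against 45.1 CPM for Hmgcs1 and 20.1 against 53.6 CPM for Cyp51.

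Within single subsets fewer members were called. In LYVE1+CX3CR1+ macrophages Hmgcs1 (adjusted p = 0.0252) and Cyp51 (-1.43 ± 0.30, adjusted p = 0.0225) fell and 0 members rose, beside 0.963% of all genes called; of all called genes 15.6% were higher, and 26.4% under DESeq2-type size factors, 23 of 46 under voom and 58.7% in the fit on the compared groups, where the majority turned. Both calls were lost without LYVE1+CX3CR1+ control 1 or control 3 (adjusted p between 0.0958 and 0.12). Each of IC libraries 1 and 3 also decided 1 of them: Cyp51 had an adjusted p of 0.0858 without library 1, and Hmgcs1 0.11 without library 3. Leaving out IC library 2 ended the call of Cyp51 (0.0591). Both calls also ended under voom (0.183 for Hmgcs1 and 0.131 for Cyp51) and in the fit on the compared groups (0.114 and 0.0945). Idi1, the isopentenyl diphosphate isomerase, Sqle, the squalene epoxidase, and Stard4, a sterol carrier, had values of -1.54 ± 0.46, -1.39 ± 0.39 and -1.16 ± 0.46 with adjusted p of 0.108, 0.0817 and 0.239. In 10 of 34 members all IC libraries lay below all controls, beside 16.7% of all genes, which is 29.4% of the members.

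In MHCII+CD11c- macrophages 0 members were called by edgeR, beside 0.701% of all genes, with 4 members at an unadjusted p under 0.05. DESeq2 called 1, Cyp51, at an adjusted p of 0.05 (-1.02), where edgeR gave -0.98 ± 0.30 with an adjusted p of 0.162. In 5 of 34 members (14.7%) all IC libraries lay below all controls, beside 8.48% of all genes. The median of the 18 sterol enzymes was -0.32, and it was -0.05 without both control libraries numbered 2. In MHCII+CD11c+ macrophages 0 members were called by edgeR and 0 by DESeq2, beside 0.216% of all genes, with 5 members at an unadjusted p under 0.05. Voom with quality weights called Insig1 (-0.84, adjusted p = 0.0281), for which edgeR gave -0.82 ± 0.24 with an adjusted p of 0.333. All IC libraries lay below all controls in 8 of 34 members (23.5%), beside 9.02% of all genes.

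Summed over the 19 sterol enzymes, LYVE1+CX3CR1+ controls had 439 to 500.4 CPM and IC libraries 333 to 344 CPM. MHCII+CD11c+ controls had 560.2 to 610.0 CPM and IC libraries 401 and 490.3 CPM. Both pairs of ranges were apart, while MHCII+CD11c- macrophages overlapped, with 276 to 473 CPM in controls and 239 to 328 CPM after IC. The control library with 473 CPM in that group was library 2. In LYVE1+CX3CR1+ macrophages the lower sum came from a few genes, since 9 of the 18 tested enzymes had a negative fitted value and 9 a positive one, with a median of -0.01 under TMM and 0.08 under DESeq2-type size factors. Over all genes the median there was -0.14 under TMM, with 59.1% negative, and -0.05 under DESeq2-type size factors.

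**Figure D3:**
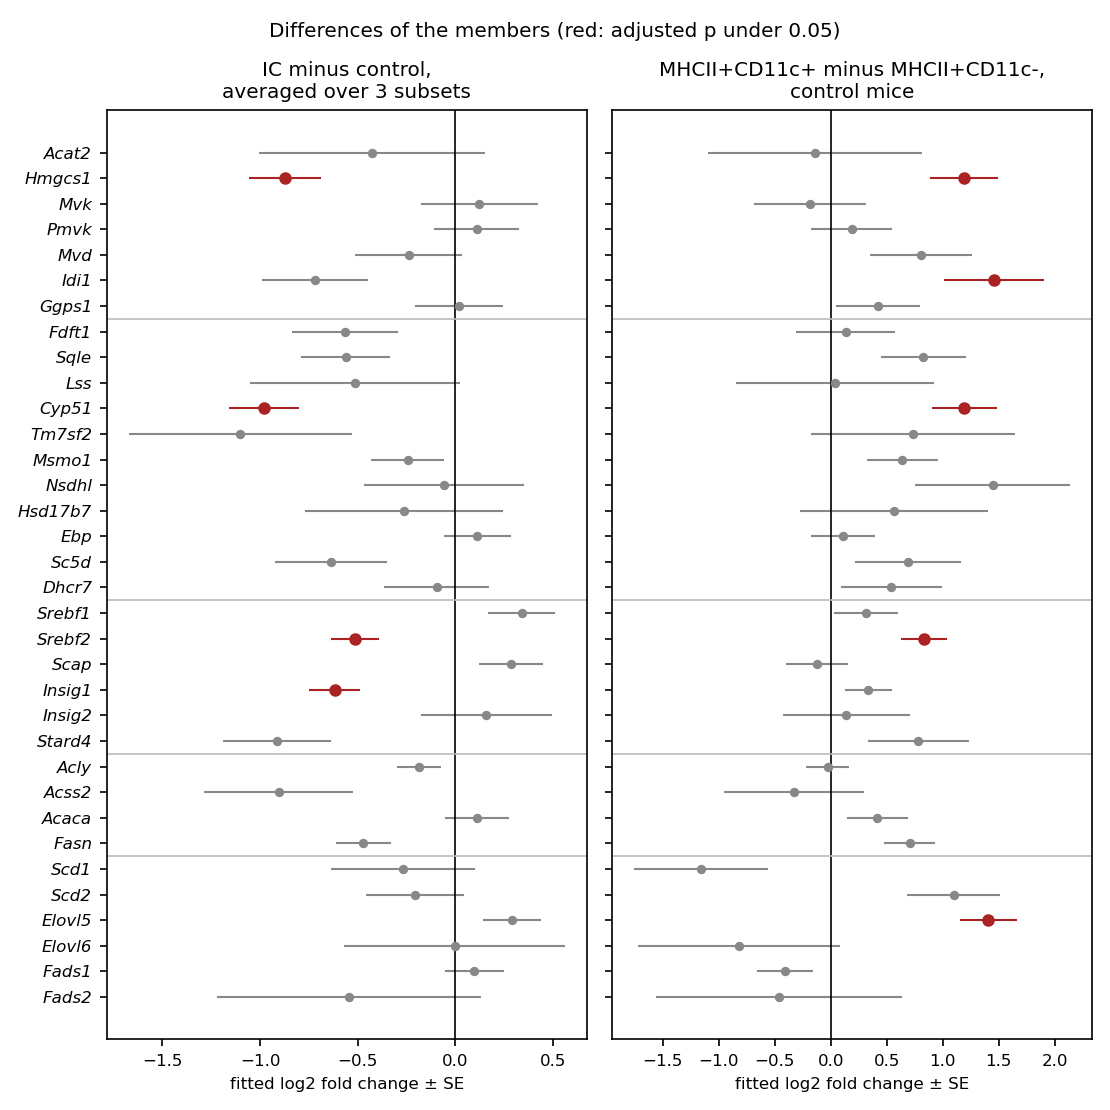
Fitted log2 fold changes with SE of the 34 tested genes for IC against control averaged over 3 subsets (left) and for MHCII+CD11c+ against MHCII+CD11c- macrophages of control mice (right); red points have an adjusted p under 0.05 and grey lines part the roles. The 4 called genes on the left lie between -0.98 and -0.51, and the 5 called genes on the right between 0.84 and 1.46.

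The fatty acid genes had 0 called members after IC in the average or in any subset by edgeR. Fasn, the fatty acid synthase, had -0.47 ± 0.14 (adjusted p = 0.0653) in the average, which was called by DESeq2 (0.0317), by voom (0.0451) and without both control libraries numbered 2 (0.0276). Acss2 had -0.90 ± 0.38 (adjusted p = 0.210). Acly, Acaca (acetyl-CoA carboxylase), Scd2 (a stearoyl-CoA desaturase) and Fads1 (the delta-5 desaturase) lay between -0.20 and 0.11 in the average. Among the regulators, Srebf1 had 0.34 ± 0.17 (adjusted p = 0.306), Scap 0.29 ± 0.16 (0.386) and Insig2 0.16 ± 0.34 (0.872), all of them uncalled and of opposite sign to Srebf2 and Insig1.

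Whether the IC response differed between subsets was tested as an interaction. By edgeR 0 members were called in each of the 3 pairs of subsets, beside 0.0262%, 0.0327% and 0% of all genes, and 3, 1 and 0 members had an unadjusted p under 0.05. Member counts were also 0 by DESeq2 and in every other alternative. The smallest unadjusted p was that of Fads1, with differences of -1.10 ± 0.35 (adjusted p = 0.428) for LYVE1+CX3CR1+ against MHCII+CD11c- and -1.11 ± 0.37 (0.373) against MHCII+CD11c+. For Hmgcs1 the difference between LYVE1+CX3CR1+ and MHCII+CD11c- was -1.18 ± 0.44 (adjusted p = 0.535). A response called in LYVE1+CX3CR1+ macrophages is therefore not shown to differ from that of the others.

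Sums of marker lists differed between IC and control libraries, some lower after IC and others higher. The summed neutrophil markers (S100a8, S100a9, Retnlg, Ly6g, Mmp8) were 63.7 to 248 CPM in MHCII+CD11c+ controls and 0.4 to 1.2 CPM after IC, and 0.3 to 137 CPM in MHCII+CD11c- controls and 1.1 to 15.4 CPM after IC. The 2 ranges overlapped in MHCII+CD11c- macrophages. In the average 5 of 5 neutrophil markers were negative and 1 was called. In LYVE1+CX3CR1+ libraries their sum was at most 7.0 CPM in controls and 5.4 CPM after IC. Markers of the MHCII+ side (H2-Ab1, H2-Aa, H2-Eb1, Retnla, Itgax) did move in that subset, from sums of 228 to 576 CPM in controls to 34.8 to 101 CPM after IC, with a median log2 fold change of -2.67. Of these 5 genes, H2-Aa and H2-Eb1 fell there, and 3 fell in the average. In MHCII+CD11c- macrophages the same markers summed to 10396 to 11993 CPM in controls and 6448 to 8304 CPM after IC. All 5 had negative fitted values in that subset and 0 were called. Other sums rose. Markers of the LYVE1+CX3CR1+ side (Lyve1, Cx3cr1, Timd4, Folr2, Vsig4, Sparc) had 3847 to 4735 CPM in LYVE1+CX3CR1+ controls. They had 5904 to 7015 CPM after IC, with 2 of 6 fitted values negative. In MHCII+CD11c+ macrophages the macrophage markers had 2589 to 3374 CPM in controls and 3697 to 4481 CPM after IC. Dendritic cell markers had 83.0 to 147 CPM in these controls and 156 to 201 CPM after IC. In the average 1 marker of the LYVE1+CX3CR1+ side and 1 macrophage marker were called higher. The part of these markers in the falls of Hmgcs1 and Cyp51 was not tested. The 8 adipocyte markers summed to 17.5 to 67.2 CPM, most of it from Lipe, which macrophages also express, with 15.98 to 43.2 CPM. Adipoq and Lep were at most 2.3 CPM in any library and Plin1 at most 6.2 CPM, while Car3 reached 30.1 and Cfd 14.0 CPM in MHCII+CD11c- libraries. Of the 6 tested, Car3 fell after IC in LYVE1+CX3CR1+ macrophages, where it was at 0 in the 3 IC libraries, and Car3 and Cfd were lower in MHCII+CD11c+ than MHCII+CD11c- controls. The part of these markers was not tested.

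The second question was how the subsets differed in control mice. The MHCII+CD11c+ libraries had the highest levels of several members. Against MHCII+CD11c- macrophages, 5 of 34 members were higher and 0 lower, beside 8.66% of all genes called in either direction: Hmgcs1, Idi1, Cyp51, Srebf2 and Elovl5. All libraries were higher without overlap in 14 of 34 members (41.2%), beside 12.6% of all genes. Of the 18 sterol enzymes 16 had a positive fitted value, with a median of 0.60, where all genes had -0.03. The 10 fatty acid genes did not share this direction, with 6 negative fitted values and a median of -0.18.

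Elovl5 (chr9:77917364-77984519, plus strand), an elongase of polyunsaturated fatty acids, had 112, 91.2 and 152 CPM in MHCII+CD11c+ controls, 40.7, 39.8 and 53.2 CPM in MHCII+CD11c- controls and 40.5, 44.3 and 57.8 CPM in LYVE1+CX3CR1+ controls. The MHCII+CD11c+ libraries were above the rest, and the others overlapped. The difference was 1.41 ± 0.25 (adjusted p = 0.000599) against MHCII+CD11c- and 1.31 ± 0.25 (0.000529) against LYVE1+CX3CR1+ macrophages. It was called in every alternative run for both. After IC Elovl5 had 80.5, 57.6 and 45.2 CPM in LYVE1+CX3CR1+, 62.1, 62.4 and 77.3 CPM in MHCII+CD11c- and 94.5 and 128 CPM in MHCII+CD11c+ macrophages. The MHCII+CD11c- libraries after IC were all above their controls, and the IC change was not called (0.60 ± 0.25, adjusted p = 0.389).

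Idi1 (chr13:8885501-8892451, plus strand) had 43.4, 34.7 and 29.9 CPM in MHCII+CD11c+ controls, 9.17, 19.8 and 10.03 CPM in MHCII+CD11c- controls and 24.9, 48.9 and 27.1 CPM in LYVE1+CX3CR1+ controls. The MHCII+CD11c- libraries were the lowest. After IC Idi1 had 9.65, 17.9 and 6.64 CPM in LYVE1+CX3CR1+, 10.6, 5.56 and 14.9 CPM in MHCII+CD11c- and 20.7 and 39.4 CPM in MHCII+CD11c+ macrophages. The difference between the MHCII+ subsets was 1.46 ± 0.45 (adjusted p = 0.0427). It was lost without MHCII+CD11c- control 1 or 3, MHCII+CD11c+ control 1, 2 or 3, or LYVE1+CX3CR1+ control 3 (adjusted p between 0.0515 and 0.17). It stayed called without MHCII+CD11c- control 2, with 1 library left out each time. Hmgcs1 had 1.19 ± 0.30 (0.0129), Cyp51 1.19 ± 0.29 (0.00963) and Srebf2 0.84 ± 0.20 (0.00958), with the library values given above.

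With surrogate variables fitted, 1 of these 5 calls was left, that of Elovl5, and the other four had adjusted p between 0.0603 and 0.119 and the same sign. Without MHCII+CD11c- control 1 or control 3, 2 members were called, and 3 without MHCII+CD11c+ control 1 or control 3. Without both control libraries numbered 2, 6 were called, with Cyp51 at 1.63 and Fasn, at 0.98 (adjusted p = 0.0152), added.

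Against LYVE1+CX3CR1+ macrophages, 4 of 34 members were higher in MHCII+CD11c+ macrophages (Cyp51, Srebf2, Fasn and Elovl5) and Fads1 was lower, beside 15.2% of all genes called. The share of members called, 14.7%, was close to that background. Fasn (chr11:120805846-120824547, minus strand) had 202, 131 and 233 CPM in MHCII+CD11c+ controls and 99.2, 83.0 and 92.9 CPM in LYVE1+CX3CR1+ controls, without overlap, a difference of -1.04 ± 0.23 for LYVE1+CX3CR1+ minus MHCII+CD11c+ (adjusted p = 0.00261). MHCII+CD11c- controls had 103, 125 and 119 CPM of Fasn. After IC it had 87.2, 78.1 and 47.7 CPM in LYVE1+CX3CR1+, 118, 100.7 and 77.6 CPM in MHCII+CD11c- and 96.7 and 117 CPM in MHCII+CD11c+ macrophages, where both libraries lay below the controls. Fads1 (chr19:10182888-10196877, plus strand) had 63.5, 67.3 and 66.6 CPM in LYVE1+CX3CR1+ controls, 40.8, 24.5 and 28.7 CPM in MHCII+CD11c+ controls and 49.3, 35.3 and 40.5 CPM in MHCII+CD11c- controls. Its LYVE1+CX3CR1+ libraries were the highest and closest together, and the difference from MHCII+CD11c+ was 1.07 ± 0.25 (adjusted p = 0.00412). After IC Fads1 had 38.3, 50.7 and 37.3 CPM in LYVE1+CX3CR1+, 67.8, 55.4 and 49.0 CPM in MHCII+CD11c- and 43.5 and 43.6 CPM in MHCII+CD11c+ macrophages, so that its LYVE1+CX3CR1+ libraries were no longer the highest. Cyp51, at -0.97 ± 0.29 (0.0227), and Srebf2, at -0.70 ± 0.20 (0.0198), completed the list. The call of Cyp51 was also lost without LYVE1+CX3CR1+ control 1 (0.0523), and that of Srebf2 with surrogate variables (0.112). Without MHCII+CD11c+ control 1 or 3, or LYVE1+CX3CR1+ control 2, only Fasn, Elovl5 and Fads1 were called. Other markers differed between these subsets too. All 6 macrophage markers were lower in MHCII+CD11c+ controls, 3 of 4 tested dendritic cell markers (Flt3, Zbtb46 and Ccr7) were higher, with sums of 83.0 to 147 CPM against 11.3 to 14.9 CPM, and 3 of 5 neutrophil markers were higher, with sums of 63.7 to 248 CPM against at most 7.0 CPM. Their part in the differences between subsets was not tested.

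**Figure D4:**
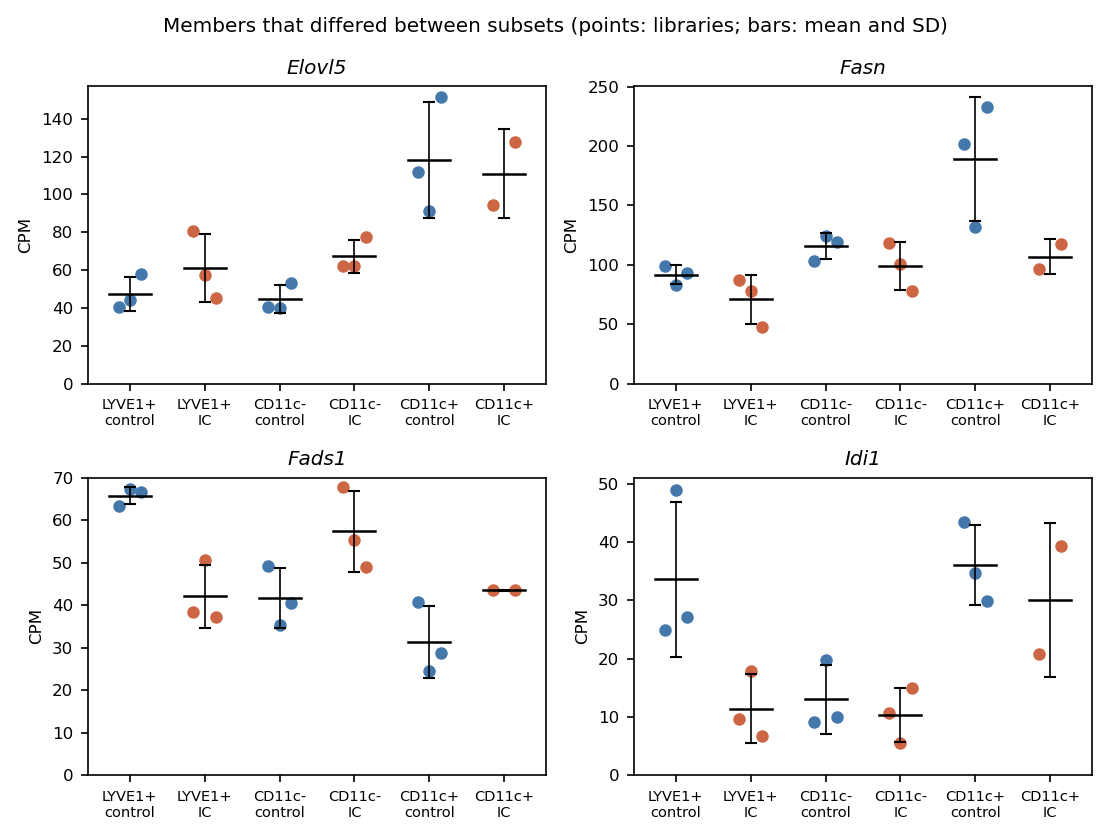
CPM of Elovl5, Fasn, Fads1 and Idi1 by group; points are libraries (blue control, orange IC), horizontal bars the mean and vertical bars the SD over 3 libraries (2 for CD11c+ IC). Elovl5 and Fasn are highest in CD11c+ controls, with means of 118 and 189 CPM, and Fads1 is highest in LYVE1+ controls, with a mean of 65.8 CPM.

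Between LYVE1+CX3CR1+ and MHCII+CD11c- macrophages of control mice 0 members were called by edgeR, beside 1.56% of all genes, with 6 members at an unadjusted p under 0.05. The member nearest to a call was Scd1, a stearoyl-CoA desaturase, which had 6.8, 6.5 and 11.0 CPM in LYVE1+CX3CR1+ controls and 37.8, 21.03 and 73.6 CPM in MHCII+CD11c- controls. The groups did not overlap and the difference was -2.42 ± 0.63 (adjusted p = 0.0591). DESeq2 called it (0.00262), as did voom (0.0108), the fit on these groups alone (0.013), the fit with surrogate variables (0.00561) and the fit without both control libraries numbered 2 (0.00923).

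Other genes around the pathway were described by lists. Of 9 LXR genes and targets, 1 rose after IC in the average and 0 fell. This was Abcg1, the cholesterol exporter, with 67.9, 64.9 and 80.0 CPM in LYVE1+CX3CR1+ controls and 138, 128 and 202 CPM after IC, without overlap. Its averaged change was 0.76 ± 0.12 (adjusted p = 0.000606), and in LYVE1+CX3CR1+ macrophages it was 1.14 ± 0.20 (0.00671). Other LXR targets did not pass the test in the average, with 0.28 ± 0.12 (adjusted p = 0.230) for the exporter Abca1 and 0.09 ± 0.12 (0.794) for Mylip, which encodes a ubiquitin ligase acting on lipoprotein receptors. The median of the list was 0.09, beside -0.07 over all genes. Fitted values of the 9 genes ran from -0.13 to 1.41, and the gene with the highest value was not called. By edgeR 3 of the 9 had an unadjusted p under 0.05.

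In control mice Abca1 and Mylip were lower in MHCII+CD11c+ macrophages than in MHCII+CD11c- macrophages, by -1.90 ± 0.21 (adjusted p = 3e-06) and -1.72 ± 0.21 (9.33e-06), while Abcg1 was higher by 0.89 ± 0.20 (0.00536). The same genes differed from LYVE1+CX3CR1+ macrophages, where Nr1h2, an LXR receptor, and Smpdl3a were also higher than in MHCII+CD11c+ macrophages, so that 4 of 9 were higher and 1 lower. Of 14 further synthesis genes tested, 1 rose in the averaged IC response, Hacd3, a dehydratase of fatty acid elongation (0.55 ± 0.15, adjusted p = 0.0350), and 0 fell. In LYVE1+CX3CR1+ against MHCII+CD11c+ macrophages of control mice, Mid1ip1 (1.17 ± 0.37, adjusted p = 0.0346) and Lpin1 (0.91 ± 0.27, 0.0208) were higher and Lbr, a sterol reductase of the nuclear envelope, was lower (-1.10 ± 0.32, 0.0188). Of 7 genes of SREBP cleavage and INSIG turnover, 0 were called after IC, with a median of 0.07 in the average. Erlin1, which takes part in degradation at the endoplasmic reticulum, had more RNA in MHCII+CD11c+ controls than MHCII+CD11c- ones (0.83 ± 0.24, adjusted p = 0.0298).

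Of the remaining sterol enzymes, Fdft1, Sqle, Sc5d and Tm7sf2 had averaged IC values between -1.10 and -0.56 with adjusted p between 0.190 and 0.326. Fdft1 shares 18.3% of its exonic bases with Ctsb on the opposite strand, which had 248704 counts against 2564 for Fdft1, and Tm7sf2 shares 12.1% with Vps51 on the same strand, so reads of either may be assigned to its neighbor. Mvd, Msmo1, Nsdhl and Dhcr7 had averaged values between -0.24 and -0.06, and between 0.54 and 1.45 for MHCII+CD11c+ against MHCII+CD11c- controls, where their adjusted p lay between 0.228 and 0.554. Mvk, Pmvk, Ggps1 and Ebp had averaged values between 0.02 and 0.12, and none of these 8 genes was called in any comparison.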

How the data were processed

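RNA was measured in sorted synovial macrophages of mice labelled Fcgr2b-KO, in 17 libraries. Per the labels and the study's methods, the authors made stranded low-input libraries, trimmed reads with Trim Galore, aligned them to mm10 with HISAT2 and obtained gene counts from featureCounts. The deposited values are raw counts without normalization. Versions, annotation, strand setting and treatment of multimapping reads are not given in the sources used here. The authors' tests used DESeq2 with sva. 1 further column, all at 0, could be tied to no sample and was not used.

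Genes were kept by filterByExpr (minimum count 10), which left 15272, and tested with edgeR 4.0.16 (R 4.3.3) in 1 quasi-likelihood model with a mean for each of 6 groups, TMM scaling and 11 residual degrees of freedom. Adjusted p-values are Benjamini-Hochberg values over all genes of a contrast, and 0.05 is the threshold. The averaged response weights the 3 subsets equally. Values after ± are standard errors. CPM uses TMM library sizes. The model was tested on simulated data. Library depth was 2301913 to 7248939 counts, so that 3 counts correspond to 0.414 to 1.30 CPM. No library repeated another of its group (chi-square per degree of freedom at least 6.77), and pairs across groups were not compared in this way. Alternatives were DESeq2 1.42.0, voom with quality weights (limma 3.58.1), sva 3.50.0 with 5 surrogate variables, DESeq2-type size factors, no filter, only the compared groups, a replicate block and each library left out; leaving out both MHCII+ control libraries numbered 2 was added after seeing the data.

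Coordinates are GENCODE M21 on GRCm38 (mm10). Members and lists were chosen with earlier results of these data known. Members called in a contrast are given with library values, other members by values or ranges, genes of other lists only where called in a contrast (at most 4 for each list and contrast), and Fcgr2b as the targeted gene. The IC values of Abca1 and Mylip and the library values of Scd1 were added after they were seen.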

Additional observations from a re-analysis of the deposited data

How the results depend on the processing

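For 16 called differences of members, 396 alternative values kept the direction, 357 of them past the threshold and 39 not, and 0 reversed. Numbers of called members moved as follows. For IC in LYVE1+CX3CR1+ macrophages (2 called) voom and the fit on the compared groups called 0, surrogate variables called 8, and leaving out single libraries gave 0 to 3. For IC in MHCII+CD11c- macrophages (0) DESeq2 called 1 and leaving out libraries gave 0 to 0; for IC in MHCII+CD11c+ macrophages (0) voom called 1 and leaving out libraries gave 0 to 0. For the averaged response (4) surrogate variables called 8, 1 of them higher (Elovl5), and leaving out libraries gave 2 to 5, with 2 without MHCII+CD11c+ library 1 after IC. For LYVE1+CX3CR1+ against MHCII+CD11c- controls (0) DESeq2, the compared groups, surrogate variables and both libraries numbered 2 left out called 1, voom called 2, and leaving out libraries gave 0 to 1. For LYVE1+CX3CR1+ against MHCII+CD11c+ controls (5) leaving out libraries gave 3 to 6, and for MHCII+CD11c+ against MHCII+CD11c- controls (5) surrogate variables called 1 and leaving out libraries gave 2 to 6. The 3 interactions stayed at 0. The cause of these moves was not tested.

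Same-numbered libraries of different groups had correlations of deviations between -0.153 and 0.286. These were not above 0.1 in every pair of any 2 groups, so the numbers were not taken as pairs. Between the 2 MHCII+ control groups, same-numbered libraries had 0.08 to 0.286 and libraries with other numbers -0.15 to 0.051. Every same-numbered pair was thus higher there, and whether these libraries share mice was not tested. With a replicate block the member counts were 2, 0, 0 and 4 for IC, 1 (Scd1), 5 and 6 for subsets of controls and 0 for interactions. DESeq2-type size factors moved the median of all genes by more than 0.1 only in 2 interactions, from -0.16 to -0.03 and from -0.21 to -0.04. Over all genes, counts of calls moved by more than 1.5 times under these other fits. For IC in LYVE1+CX3CR1+ macrophages 147 became 433 (DESeq2), 46 (voom), 63 (compared groups) and 1558 (surrogate variables); in MHCII+CD11c- macrophages 107 became 286, 168, 71 and 255 in the same order, and 267 without both libraries numbered 2. In MHCII+CD11c+ macrophages 33 became 74 (DESeq2), 97 (voom), 0 (compared groups) and 156 without both libraries. The averaged 511 became 935 (DESeq2), 1638 (surrogate variables) and 907 without both libraries. For LYVE1+CX3CR1+ against MHCII+CD11c- controls 238 became 510 (DESeq2), 977 (voom), 494 (compared groups), 376 (block) and 645 without both libraries, and against MHCII+CD11c+ controls 2326 became 3810 (voom). The interactions with 4, 5 and 0 calls ranged from 0 to 172, 5 to 155 and 0 to 25 over these alternatives. Leaving out single libraries gave 43 to 195 calls for IC in LYVE1+CX3CR1+ macrophages, 29 to 173 in the MHCII+CD11c- subset and 0 to 104 in the MHCII+CD11c+ subset (43 without LYVE1+CX3CR1+ control 3, 29 without MHCII+CD11c- library 3 after IC, 0 without MHCII+CD11c+ library 1 after IC and 104 without its control 2), 198 to 673 in the average (198 without MHCII+CD11c+ library 1 after IC), 96 to 411 and 1591 to 2716 for LYVE1+CX3CR1+ against MHCII+CD11c- and MHCII+CD11c+ controls (96 without LYVE1+CX3CR1+ control 3), 785 to 1671 around 1323 for MHCII+CD11c+ against MHCII+CD11c- controls (785 without MHCII+CD11c- control 3), and 1 to 7, 3 to 56 and 0 to 21 for the interactions. Depth limits low members: LYVE1+CX3CR1+ library 3 after IC had 25 counts of Hmgcs1 and 16 of Idi1.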
